A study of Mus musculus with 9 samples.

Results

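Eicosanoids are short-lived signaling lipids made from arachidonic acid, and this account concerns the genes of the enzymes that make prostaglandins and leukotrienes in CD11b+ spleen cells. The genes sought were the cyclooxygenases Ptgs1 and Ptgs2, the prostaglandin E synthase Ptges, the lipoxygenases Alox5 and Alox15, the 5-lipoxygenase activating protein Alox5ap, the leukotriene A4 hydrolase Lta4h and the leukotriene C4 synthase Ltc4s. Members were all probe sets whose platform annotation gives exactly 1 of these symbols. Of the 8 genes, 5 had such a probe set, with 6 probe sets in all among the 12488 of the array. Ptgs1, Alox5 and Alox5ap were not analysed here.

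CD11b, the integrin alpha M chain, is carried by neutrophils, monocytes, macrophages and some other leukocytes, and the cells studied were sorted for it from mouse spleens (females of 8 to 12 weeks). The 9 MG-U74Av2 arrays, Affymetrix chips read with labeled cRNA, form 3 groups of 3: tumor-bearing mice with the cells kept 24 h in complete medium (cultured), tumor-bearing mice at 0 h (fresh), and tumor-free mice. The labels used here name no tumor, strain or agent and leave unsaid whether a replicate had its own mice, so p-values reflect only how these samples vary, which may be a technical spread. The tumor-free cells were not cultured, so in the comparison of cultured with tumor-free cells the tumor and the culture cannot be told apart.

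Cyclooxygenases turn arachidonic acid into prostaglandin H2, and terminal synthases convert this into the single prostanoids. Ptgs2 is the inducible cyclooxygenase and Ptges the inducible microsomal synthase of prostaglandin E2, a lipid that raises pain and fever and restrains T cells. In the other branch, 5-lipoxygenase with its activating protein makes leukotriene A4, which Lta4h turns into the neutrophil attractant leukotriene B4 and Ltc4s into leukotriene C4. Alox15 is the 12/15-lipoxygenase, known in mice from resident macrophages and eosinophils.

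Ptges, the member that passed the test, and Ptgs2, whose enzyme acts 1 step before it and whose cultured and fresh values did not overlap, are shown by the 250 bases before their annotated starts, taken from RefSeq for GRCm38.p6. The Ptgs2 stretch is chr1:150099781-150100030 on the plus strand and the Ptges stretch chr2:30903298-30903547 on the minus strand, both written 5′ to 3′. Capitals mark matches, on either strand, to the C/EBP palindrome TTGCGCAA or the GC box GGGCGG. C/EBP factors are transcription factors of myeloid cells, and GC boxes are bound by Sp1-type factors.
Ptgs2: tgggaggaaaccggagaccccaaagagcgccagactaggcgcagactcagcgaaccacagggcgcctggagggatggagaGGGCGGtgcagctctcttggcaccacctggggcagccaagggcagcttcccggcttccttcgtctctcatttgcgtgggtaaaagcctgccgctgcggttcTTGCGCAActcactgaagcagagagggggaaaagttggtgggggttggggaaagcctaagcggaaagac
Ptges: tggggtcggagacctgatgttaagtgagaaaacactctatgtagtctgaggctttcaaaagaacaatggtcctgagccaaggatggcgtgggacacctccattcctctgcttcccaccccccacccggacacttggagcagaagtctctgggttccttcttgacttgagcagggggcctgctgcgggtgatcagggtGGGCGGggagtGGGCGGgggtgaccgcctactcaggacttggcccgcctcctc

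The palindrome began 69 bases before the Ptgs2 start and was in 0.164% of 32851 windows of the same length before gene starts. The GC box began 170 bases before the Ptgs2 start and 53 and 42 bases before the Ptges start, and 32.7% of windows held it. None of these matches overlapped another. Neither stretch held the E-box CACGTG or the cyclic AMP response core TGACG, which were in 6.02% and 17.8% of windows. Of the other members with a stretch in the table, Lta4h and Ltc4s held none of the 4 motifs. A match is a description of the letters and no sign of binding.

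Values are MAS5 signals, an array brightness in arbitrary units on a linear scale, and tests used log2(signal + 7.83), where the offset is the 20th percentile of all values. Fold changes on that scale understate those of dim genes. A call means an adjusted p below 0.05 in limma after Benjamini-Hochberg adjustment over the 8695 probe sets that passed a filter on the mean over all arrays. In each group 1 array stood apart from the other two, namely cultured 3, fresh 3 and tumor-free 1, whose lowest correlation with its own group was 0.850, 0.874 and 0.824. The bacterial spike-in controls split the arrays at their median into a high class (cultured 1 and 2, fresh 1 and 2, tumor-free 1) and a low class (cultured 3, fresh 3, tumor-free 2 and 3). Itgam, which encodes CD11b, was between 333 and 954 on cultured, between 392 and 585 on fresh and between 244 and 373 on tumor-free arrays. Summed signals of 10 exocrine pancreas genes were 560 to 1152 on cultured, 12430 to 21032 on fresh and 591 to 889 on tumor-free arrays, and 9 of the 10 were called higher in fresh against tumor-free cells. With RNA of mixed cells, fewer cells of a type and less RNA per cell cannot be told apart.

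Ptges was the only 1 of the 5 measured genes to pass the test in any comparison. It rose in cultured cells, both against fresh and against tumor-free cells, whereas Ptgs2, which acts 1 step before it, lay lower in all 3 cultured arrays than in all 3 fresh arrays without passing the test. Alox15 was bright on 2 of 3 tumor-free arrays and dim on most others, and Lta4h and Ltc4s passed no test. Of 5 member probe sets tested, 1 was called higher and 0 lower in cultured against fresh cells, where 2.69% of all probe sets were called (1.52% higher, 1.17% lower), and 2 had an unadjusted p below 0.05 (16.3% of all). In cultured against tumor-free cells 1 was called higher and 0 lower, where 1.23% of all were called (0.587% higher, 0.644% lower), and 2 had an unadjusted p below 0.05 (14.1% of all). In fresh against tumor-free cells 0 of 5 were called in limma and 0 had an unadjusted p below 0.05, against 1.9% (0.943% higher, 0.955% lower) and 16.7% of all probe sets. The median log2 fold change of the 5 was -0.32 in cultured against fresh cells (0.02 over all probe sets), -0.14 in cultured against tumor-free cells (0.05) and 0.18 in fresh against tumor-free cells (0.01).

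**Figure D1:**
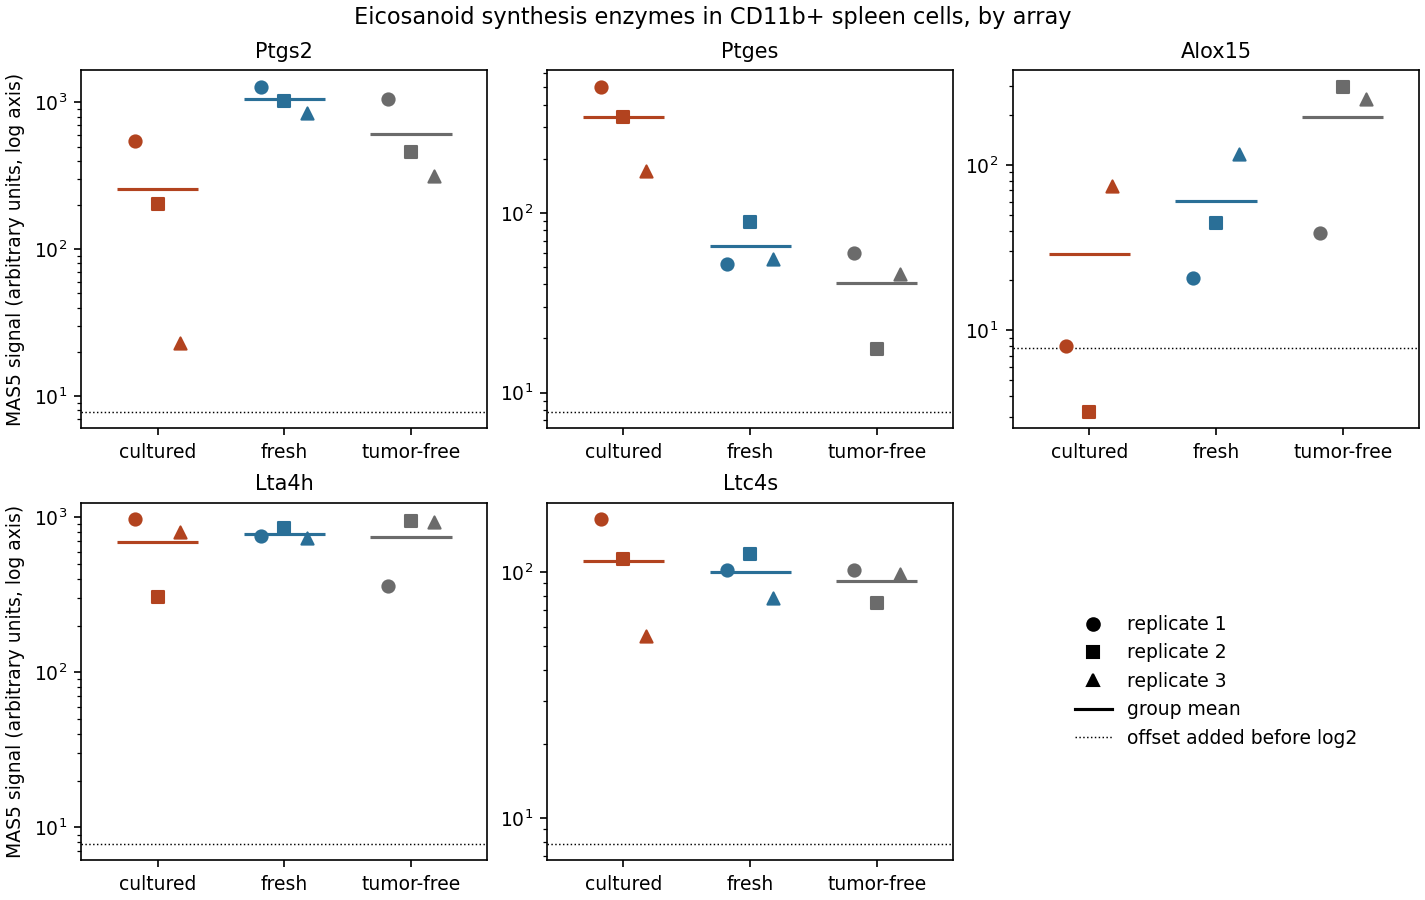
MAS5 signal (log axis, arbitrary units) of the 5 measured enzyme genes on each of the 9 arrays, with symbols for replicate numbers, bars for group means and a dotted line at the offset of 7.83. All 3 cultured arrays lay above all others for Ptges, and Ptgs2 was at 22.9 on cultured 3 against at least 849.6 on fresh arrays.

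Ptges, the inducible synthase of prostaglandin E2, had signals of 504, 342 and 172 on the cultured arrays, 51.7, 88.4 and 55.5 on the fresh arrays and 59.8, 17.5 and 45.5 on the tumor-free arrays. The lowest cultured value lay above every value of the other groups, and fresh and tumor-free arrays overlapped. Means were 339 ± 166 in cultured and 65.2 ± 20.2 in fresh cells (SD, n = 3 each), a ratio of 5.20. The log2 fold change was 2.16 ± 0.45 (SE of the limma fit, adjusted p = 0.0293, 95% interval 1.16 to 3.15).

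Against tumor-free cells, with a mean of 40.9 ± 21.6 (SD, n = 3), the cultured cells stood 8.28 times higher in mean signal. The log2 fold change was 2.82 ± 0.45 (limma adjusted p = 0.0147, 95% interval 1.83 to 3.81). The cultured arrays serve both comparisons, so the 2 calls are not independent. Groups did not overlap in a higher direction for 13.4% of probe sets in cultured against fresh cells and 10.3% in cultured against tumor-free cells.

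In fresh against tumor-free cells the Ptges change was 0.66 ± 0.45 (limma adjusted p = 0.472), with an interval from -0.33 to 1.66 that holds both a fall and a rise. Within the high spike-in class the change in cultured against fresh cells was 2.48, from 2 arrays each, and within the low class 1.503, from 1 array each. Both classes thus showed cultured cells higher, and so did all 22 alternatives of the processing, with changes from 1.503 to 2.57. The call against fresh cells was lost without cultured 1 or 2 or any 1 of the 3 fresh arrays (adjusted p up to 0.126). The call against tumor-free cells was lost without cultured 1 or 2 or tumor-free 2 or 3, and in a fit of these 2 groups alone (adjusted p up to 0.0837).

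Ptgs2, the inducible cyclooxygenase, had signals of 545, 202 and 22.9 on the cultured arrays, 1284, 1024.5 and 849.6 on the fresh arrays and 1048, 463 and 315 on the tumor-free arrays. Every cultured array was below every fresh array, and the cultured arrays spread over more than an order of magnitude, with cultured 3 lowest. Tumor-free 1, the array apart in its group, was within the fresh range, and tumor-free 2 and 3 were below it.

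The mean was 257 ± 265 in cultured and 1053 ± 218 in fresh cells (SD, n = 3 each), with a log2 fold change of -2.78 ± 0.84 (SE) that did not pass limma's test (unadjusted p = 0.00697, adjusted p = 0.113, 95% interval -4.62 to -0.93). Groups that do not overlap in the lower direction made up 8.81% of probe sets. The change was -1.76 within the high and -4.80 within the low spike-in class, and without cultured 3 it was -1.62. All 22 alternatives, which reuse the same arrays, gave a negative value. A minority passed the threshold, and the fit within the low class rests on 1 array each of cultured and fresh cells.

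Against tumor-free cells, whose mean was 609 ± 388, the cultured value was -1.83 ± 0.84 (limma adjusted p = 0.356) and became -0.67 without cultured 3. In fresh against tumor-free cells the Ptgs2 change was 0.94 ± 0.84 (adjusted p = 0.583), 1.42 without tumor-free 1, and 0.13 within the high and 1.14 within the low class. Summed neutrophil markers, 11 genes, were 15898 to 44226 on cultured, 48689 to 60849 on fresh and 33437 to 48345 on tumor-free arrays. The lowest fresh and the highest tumor-free sum lay close together. In each of the 3 comparisons 1 of the 11 was called lower. This was Mpo in cultured against fresh cells and Cxcr2 in the comparisons with tumor-free cells. Cxcr2 ran against the sum, at 51.0 to 75.2 on fresh and 163 to 275 on tumor-free arrays. The part of neutrophil and pancreas RNA in the Ptgs2 values was not tested.

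**Figure D2:**
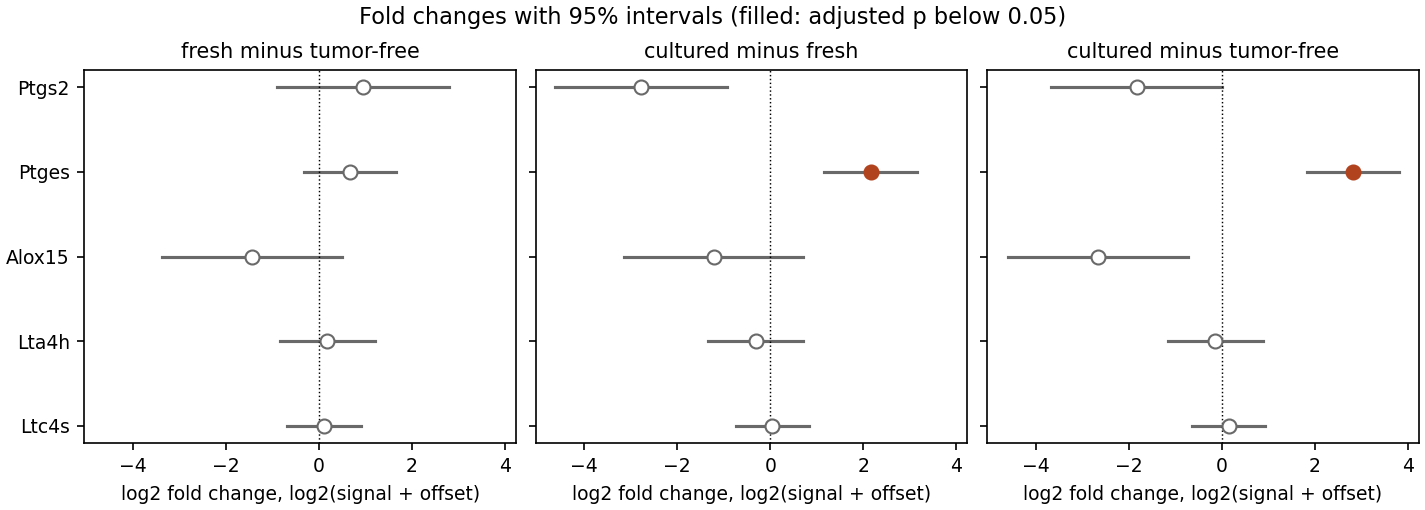
log2 fold changes on the log2(signal + 7.83) scale with 95% intervals for the 5 measured enzyme genes in the 3 comparisons; filled points are those called. Only Ptges is filled, at 2.16 in cultured minus fresh and 2.82 in cultured minus tumor-free cells.

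Alox15, the 12/15-lipoxygenase, had signals of 8.07, 3.22 and 74.9 on the cultured arrays, 20.8, 44.25 and 115 on the fresh arrays and 38.5, 297 and 249 on the tumor-free arrays. In each group the value of the array that stood apart was outside the range of the other two: cultured 3 and fresh 3 were high and tumor-free 1 was low. The 4 arrays of the low spike-in class had the 4 highest Alox15 signals of the 9, so the level moved with the spike-in class as well as with the group. The ratio of 3′ to 5′ actin signal, a measure of RNA integrity, was 2.27, 2.36 and 1.16 on cultured, 1.59, 1.58 and 1.35 on fresh and 2.57, 0.994 and 1.19 on tumor-free arrays, so these 4 arrays also had the 4 lowest ratios; its part was not tested. Cultured 1 was near the offset and cultured 2 below it, and there the signal has little meaning as a level.

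The Alox15 mean was 28.7 ± 40.03 in cultured and 195 ± 138 in tumor-free cells (SD, n = 3 each). The log2 fold change was -2.66 ± 0.88 (limma unadjusted p = 0.0115, adjusted p = 0.193, 95% interval -4.59 to -0.73). It was -1.81 within the high and -1.76 within the low class, and -3.52 without tumor-free 1, which passed the threshold (adjusted p = 0.0272). In fresh cells, with a mean of 60.2 ± 49.3, the value against tumor-free cells was -1.43 ± 0.88 (adjusted p = 0.423). It was -0.26 within the high and -1.18 within the low class, and -2.30 without tumor-free 1. In cultured against fresh cells it was -1.22 ± 0.88 (adjusted p = 0.555). All 22 alternatives of each comparison kept the negative direction.

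Genes of 2 cell types known to carry Alox15 were uneven over the same arrays. Of 11 measured monocyte and macrophage genes, 1 was called lower in cultured against fresh cells, 3 in cultured against tumor-free cells and 3 in fresh against tumor-free cells. Their summed signal was 2949 to 4745 on cultured, 2279 to 2913 on fresh and 4163 to 11096 on tumor-free arrays. Vcam1, an adhesion molecule of red pulp macrophages, was at 43.6, 41.7 and 56.0 on cultured, 75.5, 77.2 and 194 on fresh and 55.2, 1975 and 2315.5 on tumor-free arrays. Like Alox15, Vcam1 was highest on replicate 3 in both tumor-bearing groups and lowest on tumor-free 1 in its group. Vcam1 was picked after its values were seen, and the list was mixed. The complement gene C1qa, called lower against tumor-free cells in both tumor-bearing groups, did the same. It was at 46.4, 77.2 and 154 on cultured, 126, 151 and 171 on fresh and 380, 2019 and 2426 on tumor-free arrays. C1qb and Adgre1 were also highest on cultured 3 and lowest on tumor-free 1 in their groups, but not highest on fresh 3. Other genes of the list differed from Vcam1. Mrc1, the mannose receptor, was at 22.7, 16.8 and 21.1 on cultured, 109.7, 98.3 and 195 on fresh and 861, 322 and 365 on tumor-free arrays, highest on tumor-free 1. Msr1, a scavenger receptor, was also highest there in its group (206, with 52.7 and 52.75 on tumor-free 2 and 3). Csf1r, the receptor of the macrophage growth factor, was lowest on cultured 3 among cultured arrays (2514, 3128 and 999). Among tumor-free arrays Csf1r was lowest on tumor-free 1 (1059, 2248 and 2422). The 5 measured genes of resident peritoneal-type macrophages summed to 973, 908 and 397 on cultured, 577 to 639 on fresh and 482 to 557 on tumor-free arrays, lowest on cultured 3. Fn1, fibronectin, made up most of this sum (948, 869 and 353 on cultured arrays), so the sum is not a level of these cells. Gata6 (6.71, 11.4 and 14.8), Selp (7.04, 8.25 and 11.2) and Cxcl13 (3.63, 3.31 and 9.64) were highest on cultured 3 among cultured arrays. Icam2 was not (7.58, 16.05 and 7.86), and many of these values were near or below the offset.

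Of 9 eosinophil genes 5 were on the array and 3 tested, with 0 called in limma in any comparison; the 5 summed to 49.0 to 281 on cultured, 49.1 to 85.7 on fresh and 60.4 to 261 on tumor-free arrays. Prg2, the eosinophil major basic protein, was at 7.10, 3.97 and 200.2 on cultured, 7.05, 10.4 and 9.56 on fresh and 3.00, 101 and 101 on tumor-free arrays. Epx, the eosinophil peroxidase, was above the offset on cultured 3 (37.3), tumor-free 2 (13.1) and tumor-free 3 (8.21) alone. Other genes of the list had other patterns: Ccr3, the eotaxin receptor, was at 29.4, 31.3 and 11.8 on cultured, 16.6, 27.6 and 19.3 on fresh and 32.4, 90.5 and 112 on tumor-free arrays, with cultured 3 the lowest of the 9. Prg3, a relative of Prg2, was at 7.93, 17.2 and 31.4 on cultured, 34.2, 43.2 and 17.2 on fresh and 23.1, 18.8 and 36.8 on tumor-free arrays. On the fresh arrays Prg2 was near the offset, so its values there cannot show whether it followed Alox15. The part of these cells in the Alox15 values was not tested.

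**Figure D3:**
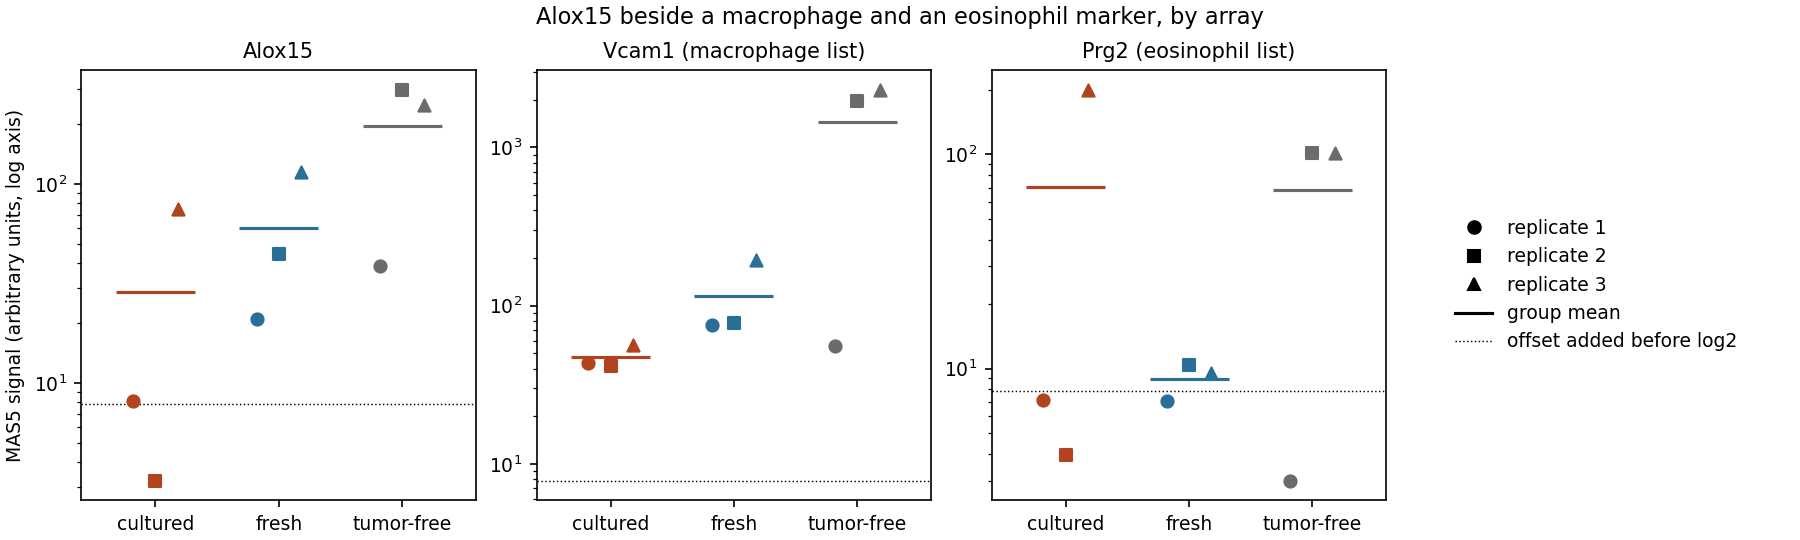
MAS5 signal (log axis, arbitrary units) of Alox15, the macrophage marker Vcam1 and the eosinophil marker Prg2 on each of the 9 arrays, with bars for group means. Tumor-free 2 and 3 are high for all 3 genes and tumor-free 1 is not. Cultured 3 is high for Alox15 (74.9) and Prg2 (200.2) but not for Vcam1 (56.0). The other genes of the same marker lists were mixed, some with other patterns.

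Lta4h, which makes leukotriene B4, was bright throughout, at 975.4, 306 and 799 on the cultured arrays, 754, 847 and 731 on the fresh arrays and 361, 946 and 931 on the tumor-free arrays. Cultured 2 and tumor-free 1 were low and the other 7 arrays lay between 731 and 975.4, so the groups overlapped. The log2 fold change was -0.32 in cultured against fresh cells (95% interval -1.34 to 0.70) and -0.14 in cultured against tumor-free cells (-1.16 to 0.88). It was 0.18 in fresh against tumor-free cells (-0.84 to 1.20), and limma's adjusted p was at least 0.809 in the 3 comparisons. The intervals still hold changes of about 1 on the log2 scale in either direction. The direction changed under 2, 5 and 3 of 22 alternatives in these comparisons.

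Ltc4s, which conjugates leukotriene A4 with glutathione, had signals of 165, 113 and 54.9 on the cultured arrays, 102, 119 and 78.3 on the fresh arrays and 102, 75.0 and 98.0 on the tumor-free arrays. All 3 groups overlapped, and cultured 1 and 3 were the highest and the lowest of all arrays. The change was 0.04 in cultured against fresh cells (95% interval -0.75 to 0.83), 0.15 in cultured against tumor-free cells (-0.64 to 0.94) and 0.11 in fresh against tumor-free cells (-0.69 to 0.90). Limma's adjusted p was at least 0.901, and the direction changed under 5, 3 and 4 of 22 alternatives.

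The other Ltc4s probe set read 0.35 to 0.92 over the 9 arrays, below the offset on each, did not pass the filter and was not tested. Ltc4s is known from mast cells, basophils, eosinophils and platelets. The 12 mast cell and basophil genes summed to 512 to 1399 on cultured, 2056 to 3213 on fresh and 868 to 2513 on tumor-free arrays, and the 5 platelet genes on the array to 57.5 to 80.5, 66.9 to 134 and 54.4 to 93.8. Hdc, the histidine decarboxylase, made up most of the mast cell and basophil sum on the fresh arrays and on tumor-free 1, at 269, 132 and 739.6 on cultured, 1591, 1707.5 and 2708 on fresh and 2205, 458 and 398 on tumor-free arrays, so the sum is not a level of these cells. Cpa3, the mast cell carboxypeptidase, was at 10.9 to 24.1 on cultured, 26.3 to 38.6 on fresh and 7.86 to 23.3 on tumor-free arrays. Mcpt8, another gene of this list, was at 49.9, 35.55 and 284 on cultured and 13.3, 62.5 and 155 on fresh arrays. On tumor-free arrays Mcpt8 was below the offset, at 1.61, 5.40 and 3.94, so the size of its changes against them depends on that offset. Its changes against tumor-free cells were 2.99 in cultured and 2.46 in fresh cells (limma adjusted p = 0.103 and 0.143). Kit was called lower in cultured against tumor-free cells (-1.61, limma adjusted p = 0.0406), the only call of this list. The platelet factor gene Pf4 was at most 10.4 on cultured, 31.99 on fresh and 15.7 on tumor-free arrays. The part of these cells in the Ltc4s values was not tested.

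Other genes of the pathway were read from lists of phospholipases, terminal synthases, lipoxygenases, breakdown enzymes, receptors and transporters. Ptgr1, which acts on finished leukotrienes, rose in cultured cells against both other groups. Abcc1, which exports them, rose in cultured against tumor-free cells but did not pass against fresh cells (adjusted p = 0.0576), and Ptges2, another prostaglandin E synthase, rose in fresh against tumor-free cells. None of 7 phospholipase genes, 3 further lipoxygenase genes, 5 prostanoid receptor genes or 2 leukotriene and lipoxin receptor genes tested passed limma's test in any comparison. No gene of these lists was called lower.

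Ptgr1, a reductase that inactivates leukotriene B4 and oxidized prostaglandins, had signals of 482, 1374 and 983 on the cultured arrays, 164, 157 and 115 on the fresh arrays and 172, 66.4 and 61.9 on the tumor-free arrays. Every cultured array was above every other array. Its log2 fold change was 2.53 ± 0.44 against fresh cells (SE, limma adjusted p = 0.0134) and 3.17 ± 0.44 against tumor-free cells (adjusted p = 0.00834). It was the only gene called among 6 tested breakdown and conversion genes, in either comparison. The call against fresh cells was lost without any 1 fresh array or without cultured 2 (adjusted p up to 0.0675), and that against tumor-free cells in a fit of these 2 groups alone (adjusted p = 0.0611) and within the high spike-in class (2.20, adjusted p = 0.0828).

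Abcc1, a membrane pump that exports leukotriene C4, had signals of 196, 250.05 and 78.1 on the cultured arrays, 43.85 to 56.7 on the fresh arrays and 14.7, 12.7 and 15.99 on the tumor-free arrays. The 3 groups did not overlap. Of all probe sets, 10.3% were higher without overlap in cultured against tumor-free, 13.4% in cultured against fresh and 9.34% in fresh against tumor-free cells. The change was 2.89 ± 0.38 in cultured against tumor-free cells (limma adjusted p = 0.00657), 1.56 ± 0.38 against fresh cells (adjusted p = 0.0576) and 1.34 ± 0.38 in fresh against tumor-free cells (adjusted p = 0.108). Of these only the first passed, and it also passed in 21 of 22 alternatives. The change against fresh cells ran from 0.41 to 2.13 over the alternatives. Abcc1 was the only transporter gene of 3 listed that had a probe set.

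Ptges2, a membrane-associated synthase whose part in making prostaglandin E2 is debated, had signals of 73.0, 71.5 and 52.7 on the cultured arrays, 77.6, 77.1 and 121 on the fresh arrays and 22.1, 39.1 and 26.6 on the tumor-free arrays. It was called higher in fresh against tumor-free cells (1.42 ± 0.30, limma adjusted p = 0.0365), the only call among 4 tested terminal synthase genes. The call stood in 10 of 22 alternatives and was lost without tumor-free 2 or 3, any 1 fresh array, or cultured 1 or 2 (adjusted p up to 0.147). It was also lost under quantile normalization, median centring and no filter, and in a fit of these 2 groups alone (adjusted p of 0.0517 to 0.0669). Against tumor-free cells the cultured value was 1.001 ± 0.30 (adjusted p = 0.153). The pancreas genes were high on the fresh arrays, and their part in the fresh Ptges2 values was not tested.

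Some genes that missed the test had groups without overlap. Ggt5, which turns leukotriene C4 into leukotriene D4, was at 7.34, 4.16 and 3.75 on cultured, 31.8, 16.9 and 102 on fresh and 77.5, 41.2 and 30.9 on tumor-free arrays, with changes of -1.89 (limma adjusted p = 0.0843) and -2.09 (0.09) for cultured cells against these groups. Pla2g7, a plasma-type hydrolase of platelet-activating factor, was at 1499, 2109 and 1413 on cultured, 952, 709 and 1094 on fresh and 972, 527 and 460.01 on tumor-free arrays (changes 0.86 and 1.40, adjusted p = 0.209 and 0.0751). Both sets of cultured values lay to 1 side of all others.

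The phospholipase gene Pla2g4a releases arachidonic acid from membranes. It was at 65.3 to 67.7 on cultured, 26.2 to 45.5 on fresh and 61.4 to 79.5 on tumor-free arrays, lowest on the fresh arrays. The change was 0.85 in cultured against fresh and -0.86 in fresh against tumor-free cells (limma adjusted p = 0.134 for both). In cultured against tumor-free cells it was -0.01 (adjusted p = 0.992). Pla2g4f, a relative of Pla2g4a, changed by 1.03 in cultured and 1.30 in fresh against tumor-free cells (adjusted p = 0.337 and 0.18). The prostacyclin receptor gene Ptgir was at 63.5 to 77.9 on cultured and 70.2 to 94.5 on fresh against 28.4 to 49.3 on tumor-free arrays (0.71 and 0.88, adjusted p = 0.259 and 0.131). The prostaglandin D2 receptor gene Ptgdr2 (-0.26, adjusted p = 0.64) and the glutathione transferase gene Mgst3 (-0.51, adjusted p = 0.611) were lower on each cultured than on each fresh array. Groups did not overlap for 22.2% of probe sets in cultured against fresh, 18.5% in cultured against tumor-free (8.2% lower) and 22.4% in fresh against tumor-free cells (9.34% higher, 13.1% lower).

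Hpgd, which oxidizes and so inactivates prostaglandin E2, followed the arrays more than the groups. It was at 24.2, 2.42 and 2 on cultured, 4.14, 4.50 and 3.17 on fresh and 2.80, 236 and 238 on tumor-free arrays. Apart from cultured 1, only tumor-free 2 and 3, which also had the highest Alox15 and Vcam1, were above the offset. The value of -2.87 ± 1.02 in fresh against tumor-free cells did not pass (limma adjusted p = 0.189) and was 0.19 within the high spike-in class, where tumor-free 1 alone stood for its group. Hpgd is named after its values were seen.

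**Figure D4:**
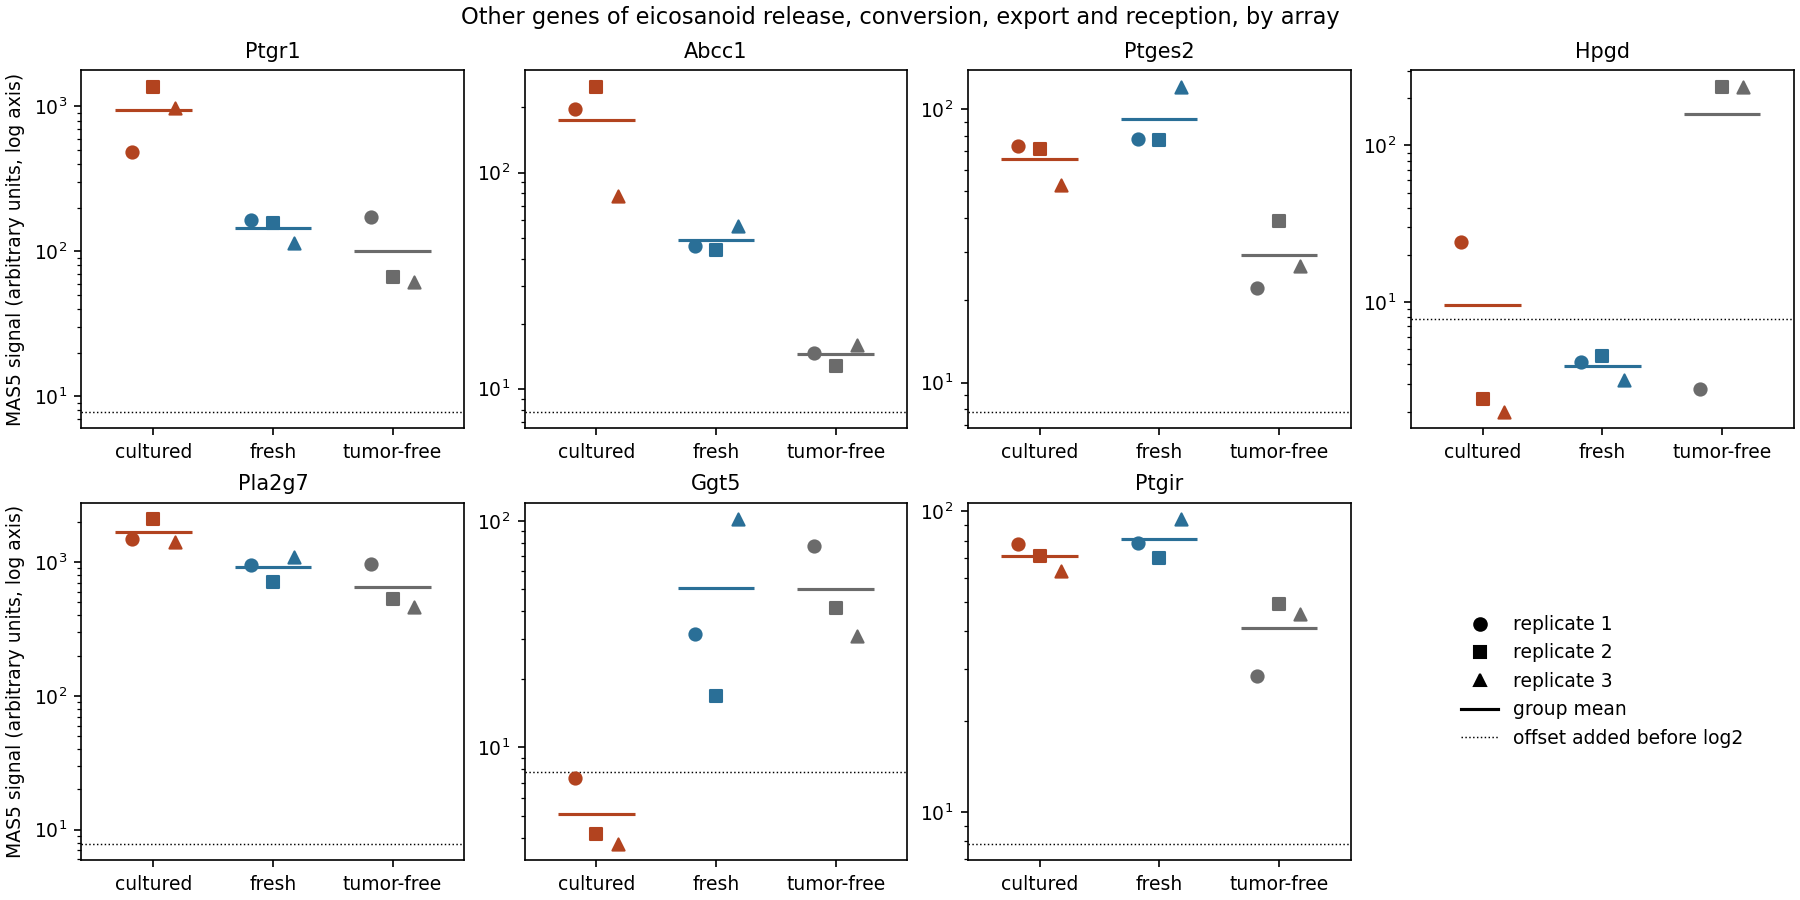
MAS5 signal (log axis, arbitrary units) of 7 further pathway genes on each of the 9 arrays, with bars for group means and a dotted line at the offset of 7.83. The cultured arrays lie above all others for Ptgr1, Abcc1 and Pla2g7 and below all others for Ggt5, and only tumor-free 2 and 3 show Hpgd at over 200 (236 and 238).

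Members did not move as 1 set over the 9 arrays. The arrays share groups and spike-in classes, so Pearson's r of log2 values is a description only. It was -0.36 between Ptgs2 and Ptges, -0.79 between Ptges and Alox15, 0.55 between Ptgs2 and Ltc4s and -0.01 between Ptgs2 and Lta4h. Among 6366 genes the patterns most like that of Ptges were Acp5 (r = 0.97), the tartrate-resistant acid phosphatase of osteoclasts and macrophages, and Cops2 (0.96), a subunit of the COP9 signalosome. Acp5 was at 403 to 692 on cultured, 178 to 232 on fresh and 132 to 220 on tumor-free arrays. Closest to Ptgs2 were Tsc22d1 (0.93), a leucine zipper protein, and Ahr (0.93), the aryl hydrocarbon receptor. Closest to Alox15 were Xpo6 (0.98), a nuclear export receptor for actin, and Xdh (0.97), xanthine dehydrogenase. Xdh was at 83.0 to 179 on cultured, 123 to 226 on fresh and 139 to 248 on tumor-free arrays. Matn4 (0.96) and Scx (0.94) lay closest to Lta4h, and Rln1 (0.95) and Sprr2i (0.94) closest to Ltc4s.

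**Figure D5:**
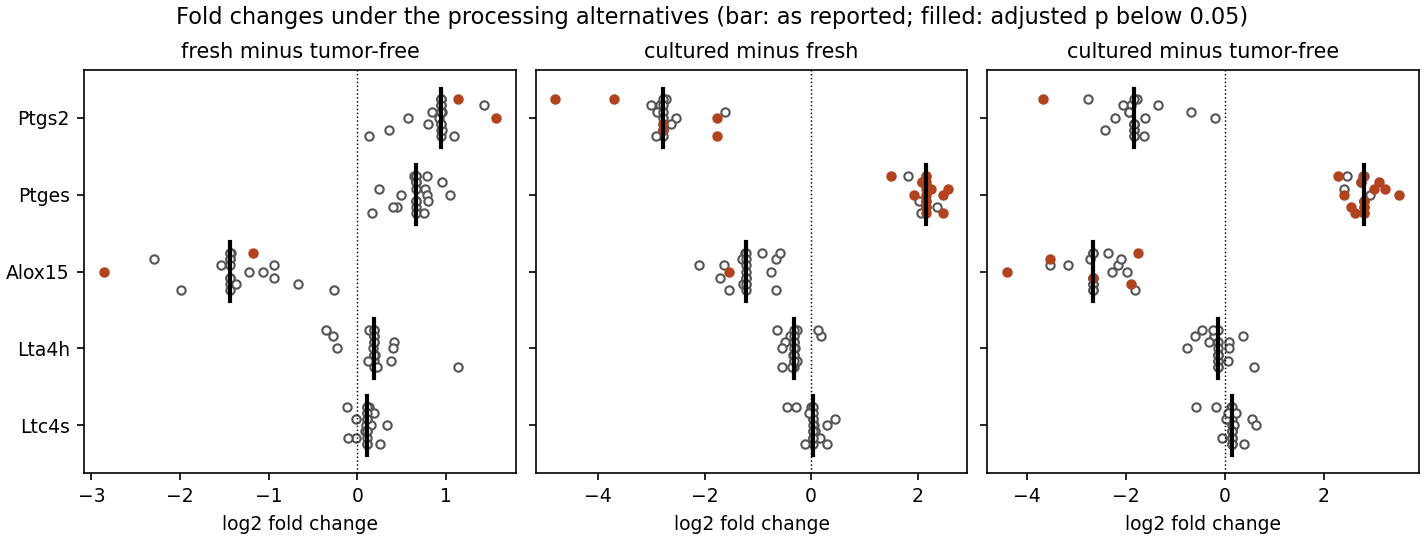
log2 fold change of each measured enzyme gene under 22 alternatives of the processing (points, spread vertically for visibility) and as reported (bars); filled points have an adjusted p below 0.05. Ptges stayed at or above 1.503 in cultured minus fresh cells, while the points of Lta4h and Ltc4s fall on both sides of 0.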

How the data were processed

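The authors deposited array intensity as 1 signal per probe set and array, made with MAS5 per the submitters' processing notes, and the range of the values is that of a linear scale; version, scaling target and build: not given in the sources used here. Trimmed means (2% at each end) of 100.06 to 100.08 on the arrays show a shared scale, which was kept; 16.6% to 23.6% of an array's values lay below the offset. Detection calls were not used here, so no background level is known, and precision is limited by how few arrays there are. Left out were 66 controls and then the dimmest 30% by mean log2. Limma 3.58.1 under R 4.3.3 fitted the 3 groups jointly over 9 arrays (6 residual degrees of freedom, variance trend on intensity, two-sided tests); intervals are those of the moderated fit. Platform annotation gave 1 symbol for 10855 probe sets, several for 396, and leaves 1237 unnamed, and 10839 of the first matched RefSeq by gene ID, with 0 symbols changed. The probe set with the highest mean stands for a gene.

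Members and gene lists were chosen with earlier results of these data known. Named are all members, called genes of the pathway lists, those of the 3 largest changes a list whose groups did not overlap (a narrowing made after the values were seen), Hpgd, and the 2 genes most alike each member. The fit was tested on simulated data with 200 changed probe sets. It called 0% of them at a log2 change of 1 in each comparison. It called 69.7% to 71.8% at a change of 2 and 96.4% to 97.5% at a change of 4. A gene that passed no test may thus still have changed by 1 on the log2 scale. Alternatives were other normalizations, offsets and filters, no trend, subsets of arrays, and the replicate number or the spike-in class (9 bacterial probe sets) as a block. They reuse the same arrays and are not independent, and fits within a spike-in class leave 1 array in some groups.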

Additional observations from a re-analysis of the deposited data

How the results depend on the processing

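Counts of called probe sets (165 in fresh against tumor-free, 234 in cultured against fresh, 107 in cultured against tumor-free cells) depended on which arrays entered, and the cause was not tested. Leaving out 1 array at a time gave 63 to 623, 74 to 489 and 24 to 529, the highest without tumor-free 1, and 0 to 0, 0 to 1 and 0 to 2 members. The 2 groups compared alone gave 14 (5 higher, 9 lower) and 0 members in cultured against tumor-free cells, with fewer arrays to estimate the spread. The 2 most alike arrays of each group gave 2147 in fresh against tumor-free, 1374 in cultured against fresh and 1810 in cultured against tumor-free cells, with 2, 3 and 2 members. In that order the spike-in class as a block gave 277, 556 and 177, with 2 members in each cultured comparison. Within the high class the counts were 411, 1049 and 444 (2 members in cultured against fresh cells), and within the low class, with 1 residual degree of freedom, 1967, 1393 and 1725 (2, 2 and 3 members). The normalizations, offsets, filters and no trend kept these counts within 1.5 times.

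Replicate numbers were not taken to pair the arrays: deviations of same-numbered arrays correlated at 0.17, 0.03 and 0.26 in cultured and fresh cells, and 4 of 9 arrays correlated best with their own number. The replicate block gave 200, 258 and 144 called probe sets, and 2 members in each cultured comparison.

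Directions turned for Lta4h and Ltc4s and, in 1 setting, for Hpgd and Ptgr1. In fresh against tumor-free cells Lta4h was -0.23 with the most alike arrays, -0.36 within the low class and -0.27 to 0.41 leaving out 1 array. Ltc4s there was -0.10 with the class block, -0.12 within the low class and -0.0217 to 0.26 leaving out 1 array, and within the high class Hpgd was 0.19 and Ptgr1 -0.0898. In cultured against fresh cells Lta4h was 0.13 within the low class and -0.64 to 0.18 leaving out 1 array, and Ltc4s was -0.027 with median centring, -0.46 within the low class and -0.29 to 0.44 leaving out 1 array. In cultured against tumor-free cells Lta4h was 0.061 with the class block, 0.59 within the high class and -0.59 to 0.37 leaving out 1 array. Ltc4s was -0.0615 with the block, -0.58 within the low class and -0.18 to 0.55 leaving out 1 array, and Hpgd was 0.77 within the high class. The second Ltc4s probe set, planned as an alternative, was below the filter and gave no value.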
